A study of Mus musculus with 11 samples.

Results

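The genes described here are the feedback inhibitors of the MAP kinase pathways that carry the names Dusp, Sprouty and Spred: Dusp1, Dusp2, Dusp4, Dusp5, Dusp6, Dusp10, Spry1, Spry2, Spry4 and Spred1. They were chosen by name, with earlier results of these data known. They are 10 of the 52550 genes in the table, and all 10 were among the 14419 genes tested. RNA-seq had been performed on sorted keratinocytes (KCs) and dendritic epidermal T cells (DETCs), the γ/δ T cells of mouse epidermis, to ask how they differ when Langerhans cells (LCs) are lacking. There were 11 libraries from untreated female mice aged 8 weeks, with 3 WT and 3 LC-/- libraries of KCs and 3 WT and 2 LC-/- libraries of DETCs. LC-/- mice carry a diphtheria toxin subunit A transgene (DTA) under the human langerin promoter and have no LCs from birth on, so the libraries hold the outcome of lifelong absence, and WT mice were littermates without it. The labels give no strain. Both populations came from trypsin-treated flank epidermis and were negative for MHC-II, langerin and c-kit, and CD45 parted DETCs (positive) from KCs (negative). Libraries are written W1 to W3 and L1 to L3 in the order of the numbers in their labels, and whether KCs and DETCs under 1 number were sorted from 1 mouse is not stated. A figure legend of the study calls each dot a separate animal, whereas the labels give only numbers, and p-values measure the spread between these libraries.

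MAP kinase cascades relay signals from growth factor and antigen receptors through RAS to the kinases ERK, JNK and p38. Dual-specificity phosphatases remove the activating phosphates from these kinases, while Sprouty and Spred proteins act further upstream, between the receptor and RAF. Many of these genes are themselves switched on by the kinases they restrain, which makes their transcripts a common readout of recent pathway activity in skin and in T cells.

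Libraries held 13491075 to 19750440 reads in genes. Values are normalized counts, that is, reads divided by a median-of-ratios size factor of the library. Differences are log2 fold changes of the normalized count plus 1 with their standard error (SE), tested with limma, and a gene is called when its p, adjusted by Benjamini-Hochberg over all 14419 genes, is under 0.05.

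The labels were checked with Cd207, which encodes langerin. It had 6, 29 and 18 reads in WT KC libraries W1, W2 and W3 and 0 reads in each of the 3 LC-/- KC libraries. In DETC libraries it had 20, 20 and 48 reads in W1, W2 and W3, 0 in L2 and 4 in L3. Of 15 DETC markers, such as the T cell receptor genes Trdc and Tcrg-C1 and the CD45 gene Ptprc, all were detected in every DETC library, with summed normalized counts of 184299 to 217692. In KC libraries the same 15 markers summed to 13.8 to 44.1, with 2 to 8 of them at 0, and KC libraries thus held next to no DETC RNA. The reverse did not hold. The 24 keratinocyte markers, led by Krt5 or Krt10, were all detected in DETC libraries, at a median of 15.3% (W1), 15.7% (W2), 17.9% (W3), 24.3% (L2) and 16.0% (L3) of their mean in KC libraries of the same genotype. In bulk libraries like these, fewer cells of a type and less RNA per cell cannot be told apart. Single markers among these 24 ranged from 5.22% (in L3) to 73.8% (in L2). Outside them, the keratinocyte marker Lor had 797, 1872 and 744 normalized counts in WT DETCs and 692, 946 and 357 in WT KCs. The percentages and subtracted values below therefore hold for the median of the 24 only. This keratinocyte share is given below where it would supply much of the DETC value of 1 of the 10 genes.

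Markers of other cell types were measured as well. The mast cell markers Cpa3, Mcpt4, Tpsb2 and Fcer1a were at 0 in all 11 libraries, while Kit, the most abundant of the 6 mast cell markers, reached 294 to 573 in DETC libraries and 5.12 to 11.6 in KC libraries. Melanocyte markers, led by Dct, summed to 7.43 to 85.6, fibroblast markers, led by Col1a2 or Col1a1, to 18.4 to 158, and endothelial markers, led by Vwf or Pecam1, to 14.6 to 48.6. LC markers summed to 3362 to 4551 and were led by Cst3 in KC libraries and by Cx3cr1 or Cst3 in DETC libraries. Among them H2-Aa had 33.7 to 54.7 normalized counts in WT and 6.61 to 14.7 in LC-/- KCs, and Cd74 336 to 448 in WT and 111 to 190.2 in LC-/- DETCs. Not every LC marker was lower in LC-/- libraries. Cst3 had 3975 to 4318 in WT and 3889 to 4400 in LC-/- KCs. In DETCs Cd86 had 36.0 to 66.1 in WT libraries, 25.2 in L2 and 71.9 in L3.

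WT DETCs and WT KCs differed in every one of the 10 genes. DETCs were higher in 6 genes, against a background of 41.0% of all tested genes, and KCs in 4 genes, against 35.1%, so the count of called genes says little about these 10 in particular. With sign, the median log2 fold change was 2.13 over the 10 genes, of which 6 were positive and 4 negative, and 0.07 over all tested genes. All 10 calls and directions held in each alternative fit. Quantile normalization moved the median of all genes to -0.24 and subtraction of the keratinocyte share moved it to -0.17, and the differences below are larger than these shifts.

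**Figure D1:**
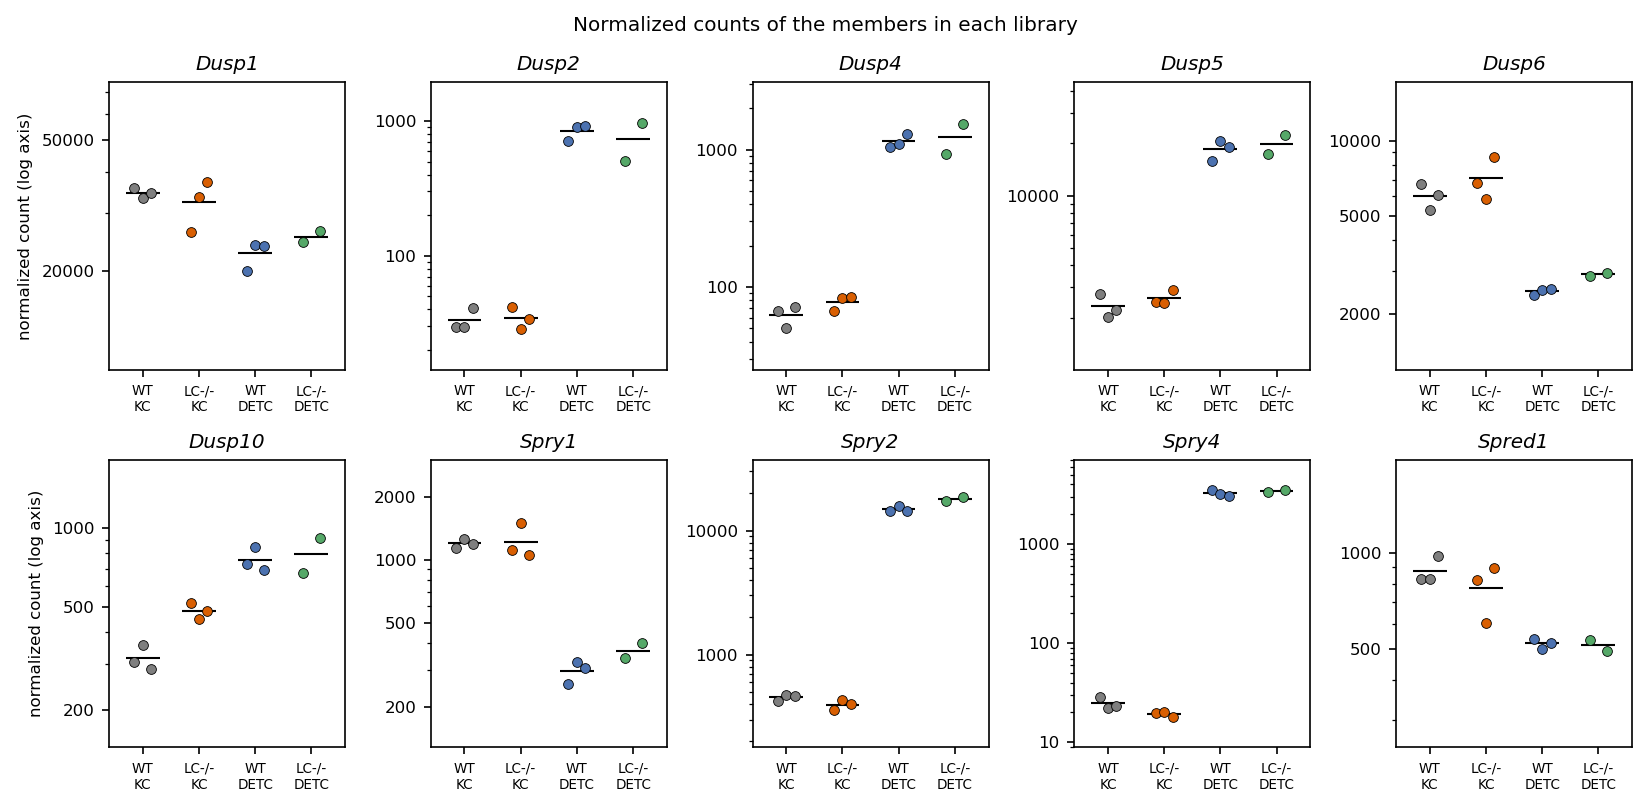
Normalized counts (log axis) of the 10 genes in the 11 libraries. Each point is a library, grouped as WT KC, LC-/- KC, WT DETC and LC-/- DETC, and the line is the group mean. DETC libraries stand far above KC libraries for Spry4 (means of 3268 and 24.8 in WT) and Spry2 (14939.97 and 455), and below them for Spry1 (297 and 1197).

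Spry4, a Sprouty protein that restrains RAS activation downstream of growth factor receptors, had the largest difference (chromosome 18, 38586247 to 38601415, GRCm38). WT KC libraries held 28.7, 22.3 and 23.3 normalized counts, and LC-/- KC libraries 19.8, 20.4 and 17.9. WT DETC libraries held 3523, 3222 and 3059, and LC-/- DETC libraries 3379.8 and 3489. Every DETC library was far above every KC library, and within KCs each LC-/- library lay below each WT library. The log2 fold change between WT DETCs and WT KCs was 6.99 (SE 0.12, adjusted p = 1.16e-10, limma). In KCs the genotypes differed by -0.33 (95% interval -0.69 to 0.02, adjusted p = 0.211), on counts so low that few reads carry the difference.

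Spry2, the Sprouty gene that dominated in DETCs, lies on chromosome 14 (105891947 to 105896819). It had 424, 472 and 468 normalized counts in WT KCs and 359, 428 and 401 in LC-/- KCs. In DETCs it had 14469, 15904 and 14447 in WT and 17459 and 18513 in LC-/- libraries. The LC-/- DETC libraries were both above all 3 WT libraries, whereas in KCs the genotypes overlapped with the LC-/- values on the low side. WT DETCs exceeded WT KCs by a log2 fold change of 5.04 (SE 0.07, adjusted p = 6.35e-11). With LC absence the log2 difference was 0.27 in DETCs (95% interval 0.03 to 0.51, adjusted p = 0.213) and -0.20 in KCs (95% interval -0.41 to 0.01, adjusted p = 0.208), so neither passed the threshold. Quantile normalization turned the DETC difference to -0.08. The keratinocyte share accounts for at most 0.564% of any DETC value of this gene.

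Spry1 ran the other way (chromosome 3, 37639947 to 37644598). WT KC libraries held 1135, 1260.5 and 1195 normalized counts and LC-/- KC libraries 1117, 1493 and 1053, and the genotypes overlapped. WT DETC libraries held 256, 328 and 306, and LC-/- DETC libraries 339.8 and 400.3, both above all WT libraries. WT DETCs were lower than WT KCs by a log2 fold change of -2.01 (SE 0.10, adjusted p = 7.58e-08). A keratinocyte share of the size given above would by itself supply 48.7% to 87.3% of the Spry1 counts in each DETC library, and with it subtracted the difference was -3.60. The DETC genotype difference of 0.32 (95% interval -0.02 to 0.66, adjusted p = 0.289) became -0.05 after the subtraction.

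Spred1, a membrane-bound relative of Sprouty that brings the RAS inhibitor neurofibromin to the membrane is on chromosome 2 (117121374 to 117182279). WT KC libraries held 829, 826 and 976 normalized counts, LC-/- KC libraries 821, 604 and 897, WT DETC libraries 539, 502 and 521, and LC-/- DETC libraries 534 and 493. All KC libraries were above all DETC libraries, and the genotypes overlapped in both populations. The log2 fold change of WT DETCs against WT KCs was -0.75 (SE 0.09, adjusted p = 3e-05), and -1.21 with the keratinocyte share subtracted, which would supply 24.9% to 35.2% of each DETC value.

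The nuclear phosphatases Dusp1, Dusp2, Dusp4 and Dusp5 are immediate or delayed early genes in many cells. Dusp5, which acts on ERK alone, lies on chromosome 19 (53529109 to 53542431). It reached 2742, 2018 and 2226 normalized counts in WT KC libraries, 2450.2, 2428 and 2873 in LC-/- KC libraries, 15902, 20706 and 19165 in WT DETC libraries and 17381 and 22297 in LC-/- DETC libraries. DETC libraries were all above KC libraries, by a log2 fold change of 3.00 in WT (SE 0.13, adjusted p = 3.18e-08), and the genotypes overlapped in both populations. The keratinocyte share would supply 1.77% to 3.61% of each DETC value. Genotype differences were 0.16 in KCs (95% interval -0.18 to 0.50) and 0.09 in DETCs (95% interval -0.27 to 0.46), and quantile normalization turned the latter to -0.21.

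Dusp2 and Dusp4 were low in KCs and high in DETCs. Dusp2 (chromosome 2, 127336159 to 127338376) had 29.7, 29.7 and 40.6 normalized counts in WT KCs, 41.9, 28.5 and 33.6 in LC-/- KCs, 709, 896 and 919.9 in WT DETCs and 501 and 965 in LC-/- DETCs. Dusp4 (chromosome 8, 34807297 to 34819894) had 66.6, 50.1 and 71.7 in WT KCs, 67.2, 83.5 and 84.1 in LC-/- KCs, 1038, 1104 and 1289 in WT DETCs and 924 and 1536 in LC-/- DETCs. The log2 fold changes between WT DETCs and WT KCs were 4.62 for Dusp2 (SE 0.16, adjusted p = 7.9e-09) and 4.18 for Dusp4 (SE 0.15, adjusted p = 7.97e-09). For both genes the 2 LC-/- DETC libraries lay on either side of all WT values, L2 below and L3 above, and L2 is also the library with the largest keratinocyte share. The part of that share in the L2 values was not tested beyond its size, which is 1.68% of the Dusp2 and 2.06% of the Dusp4 count in L2. Without L3, Dusp2 was called lower in LC-/- DETCs at a log2 fold change of -0.74 (adjusted p = 0.0494), and without L2 the fold change was 0.21.

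Dusp1, which removes phosphates from p38, JNK and ERK, had the highest normalized counts of the 10 genes in every library (chromosome 17, 26505590 to 26562128). WT KC libraries held 35847, 33331 and 34592 and LC-/- KC libraries 26418, 33687 and 37429. WT DETC libraries held 20117, 24065 and 23927 and LC-/- DETC libraries 24530.3 and 26489.5. The KC genotypes overlapped, with L1 below, L2 among and L3 above the WT libraries, while both LC-/- DETC libraries were just above the WT libraries. WT DETCs were lower than WT KCs by a log2 fold change of -0.61 (SE 0.12, adjusted p = 0.00108). The keratinocyte share would supply 19.6% to 32.2% of the Dusp1 counts of a DETC library, and with it subtracted the difference was -1.03. The genotype differences were -0.10 in KCs (95% interval -0.48 to 0.27) and 0.17 in DETCs (95% interval -0.12 to 0.47), and quantile normalization turned the latter to -0.07. The annotated gene overlaps Ergic1 on the other strand at 1 end, and whether counting used the strand is not stated. Ergic1 had at most 654 normalized counts. Genes that tissue dissociation is known to induce were abundant in every library, with Fos at 34657 to 97660.2 and Egr1 at 15551 to 76156 normalized counts. Skin had been kept in trypsin before the sort, and its part in the level of Dusp1 was not tested.

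Dusp6, the cytoplasmic phosphatase of ERK, lies on chromosome 10 (99263231 to 99267489). It had 6739, 5283 and 6056 normalized counts in WT KCs and 6769, 5829 and 8629 in LC-/- KCs. In DETCs it had 2387, 2497 and 2539 in WT and 2857 and 2941 in LC-/- libraries. KC libraries were all above DETC libraries, and both LC-/- DETC libraries were above the 3 WT libraries. WT DETCs differed from WT KCs by -1.28 (log2, SE 0.09, adjusted p = 1.06e-06). The genotype difference in DETCs, 0.23 (95% interval 0.04 to 0.41), had an unadjusted p of 0.0217 and an adjusted p of 0.171 in limma. The keratinocyte share would supply 38.0% to 60.1% of the Dusp6 counts of a DETC library, most of all in L2. After its subtraction the genotype difference was -0.05 and that between WT populations -2.01.

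Dusp10, which acts on p38 and JNK rather than ERK, was the gene that changed with LC absence (chromosome 1, 184013302 to 184075636). WT KC libraries held 305, 355 and 288 normalized counts, and LC-/- KC libraries held 517, 446 and 479. All 3 LC-/- libraries were above all 3 WT libraries. The 3 WT libraries averaged 316 ± 35.0 (SD) and the 3 LC-/- libraries 481 ± 35.4 (SD), a log2 fold change of 0.61 (SE 0.10, adjusted p = 0.0362 in limma). In DETCs the values were 730, 848 and 690 in WT and 671 and 914 in LC-/- libraries, which overlapped, with a difference of 0.06 (95% interval -0.29 to 0.41). WT DETCs were above WT KCs by a log2 fold change of 1.26 (SE 0.11, adjusted p = 4.13e-06), and by 1.15 with the keratinocyte share subtracted, which would supply 5.87% to 17.4% of each DETC value. The call in KCs was made in 10 of 11 other settings, edgeR and DESeq2 among them, and was lost without a filter on low values (adjusted p = 0.0796). It was also lost when any 1 of the 6 KC libraries was left out, with adjusted p from 0.0515 to 0.122, while the fold change ranged from 0.54 to 0.69.

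In KCs, then, 1 of the 10 genes was called higher in LC-/- mice, beside 5.37% of all tested genes, and 0 were called lower, beside 1.85%. The genotypes did not overlap for 1 gene upward (Dusp10; 16.6% of all genes) and for 1 gene downward (Spry4; 14.9%). The median log2 fold change was 0.03 over the 10 genes and -0.01 over all genes. In DETCs limma called 0 of the 10 genes higher, beside 3.13% of all genes, and 0 lower, beside 0.430%. At an unadjusted p under 0.05 there were 2 of the 10 genes, Dusp6 and Spry2, beside 2775 of all 14419, and both edgeR and DESeq2 called 0 of the 10. The DETC genotypes did not overlap for 4 genes upward (Dusp1, Dusp6, Spry1 and Spry2; 21.3% of all genes) and for 0 downward (16.5%). The median was 0.08, beside 0.02 over all genes. These directions depend on scaling: with quantile normalization 8 of the 10 differences in DETCs were negative, Dusp1 (-0.07) and Spry2 (-0.08) among them. With the keratinocyte share subtracted Dusp6 and Spry1 (-0.05 each) and Dusp10 (-0.04) turned negative, and Dusp2 (-0.27) and Spred1 (-0.08) stayed negative.

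**Figure D2:**
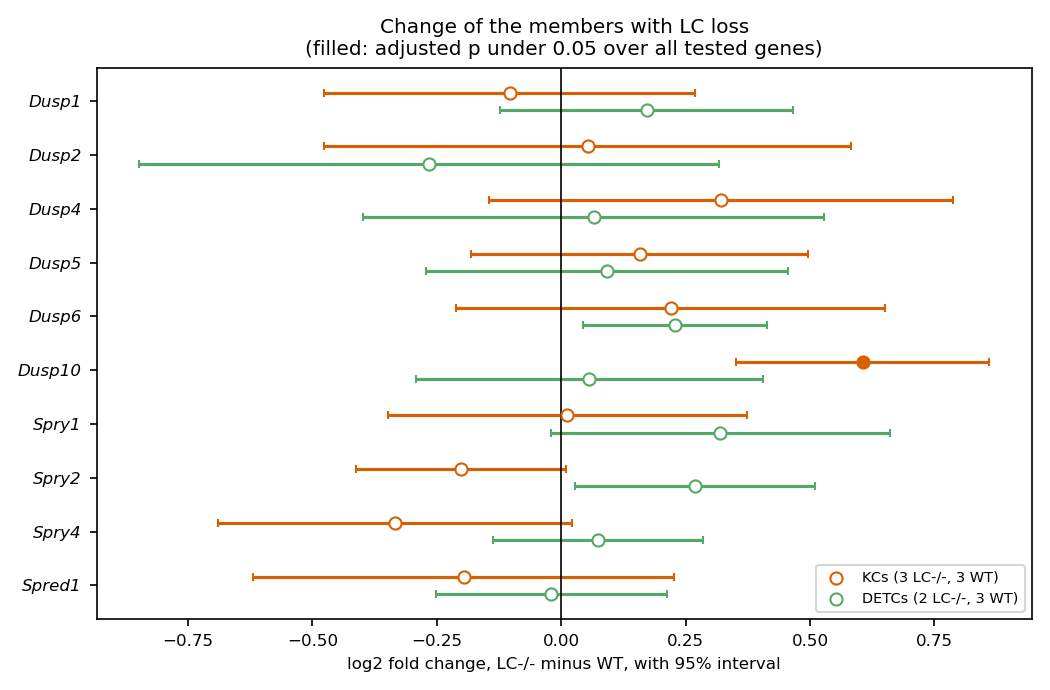
Log2 fold change between LC-/- and WT libraries for each of the 10 genes, in KCs (orange) and DETCs (green). Bars are 95% intervals from limma and filled points have an adjusted p under 0.05. Only Dusp10 in KCs is filled, at 0.61, and most other intervals cross 0.

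Whether the change with LC absence differed between DETCs and KCs was tested with an interaction term over all 11 libraries. Limma called 0 of the 10 genes, beside 0.798% of all tested genes; 3 of the 10 had an unadjusted p under 0.05 (Dusp10, Spry2 and Spry4), beside 1634 of all 14419 genes, edgeR called 0 and DESeq2 called 1. That 1 was Spry2, whose change in DETCs exceeded that in KCs by 0.47 (95% interval 0.20 to 0.74, adjusted p = 0.121 in limma and 0.0275 in DESeq2, which called 2.14% of all genes). Quantile normalization reduced it to 0.10 (adjusted p = 0.817), and the replicate block gave 0.40 (adjusted p = 0.356). For Dusp10 the difference of changes was -0.55 (95% interval -0.97 to -0.13, adjusted p = 0.287), so its call in KCs and not in DETCs does not show that the populations respond differently.

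Levels can be set beside each other between genes only per length, as RPKM, that is, reads per kilobase of exon scaled to library size. In WT KCs the order by RPKM was Dusp1 (764 ± 11.7, SD, n = 3), Dusp6 (140.5 ± 13.8), Dusp5 (68.7 ± 9.62), Spry1 (30.2 ± 2.30), Spry2 (15.9 ± 1.23), Spred1 (9.45 ± 0.86), Dusp10 (7.62 ± 1.02), Dusp4 (1.67 ± 0.27), Dusp2 (1.22 ± 0.22) and Spry4 (0.38 ± 0.046). Ranges of neighbours overlapped only for Spred1 with Dusp10 and for Dusp4 with Dusp2. In WT DETCs Dusp5 (470 ± 44.7), Spry2 (449 ± 24.0) and Dusp1 (429 ± 24.5) led with overlapping ranges. They were followed by Dusp6 (49.5 ± 0.69), Spry4 (43.2 ± 5.05), Dusp2 (26.3 ± 2.53), Dusp4 (26.1 ± 2.21), Dusp10 (15.6 ± 1.65), Spry1 (6.39 ± 0.55) and Spred1 (4.82 ± 0.37), of which only Dusp2 and Dusp4 overlapped. The exon length used for Dusp1, 3311 bases, includes annotated exons far upstream of its RefSeq start, and a shorter length would raise each Dusp1 RPKM and its share below. The place of Dusp1 among the leading genes of DETCs depends on this length and on the keratinocyte share. The order in DETCs also includes the keratinocyte share. In WT libraries it would supply 22.6% to 26.3% of Dusp1, 38.0% to 42.5% of Dusp6 and 57.5% to 71.4% of Spry1. Without this share Dusp1, at the exon length used, would stand below Dusp5 and Spry2 with no overlap. Dusp6 would stand below Spry4 and Spry1 below Spred1.

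Seen as shares, the makeup of each family differed between populations, and shares were not tested. Of the summed RPKM of the 6 Dusp genes, Dusp1 held 77.7% ± 1.53 (SD, n = 3) in WT KCs and 42.2% ± 0.74 in WT DETCs, and Dusp5 held 6.97% ± 0.73 and 46.2% ± 1.31. The Dusp genes summed to 984 ± 33.8 RPKM in WT KCs and 1017 ± 70.4 RPKM in WT DETCs, sums that rest on the Dusp1 length and, in DETCs, include the keratinocyte share of Dusp1 and Dusp6. In LC-/- KCs Dusp1 held 73.5% ± 3.36 (n = 3), Dusp6 17.0% ± 2.59 and Dusp10 1.21% ± 0.25, beside 14.3% ± 0.94 for Dusp6 and 0.78% ± 0.12 for Dusp10 in WT KCs. The 3 Sprouty genes summed to 46.5 ± 3.45 RPKM in WT KCs and 499 ± 27.0 RPKM in WT DETCs. Spry1 made up 64.9% ± 0.55 of that sum in WT KCs and 1.28% ± 0.13 in WT DETCs, where Spry2 made up 90.1% ± 0.66. A keratinocyte share at the marker median would supply most of the Spry1 value in WT DETCs. In LC-/- libraries Spry1 held 68.2% ± 3.11 (n = 3) in KCs and Spry2 91.0% ± 0.035 (n = 2) in DETCs.

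**Figure D3:**
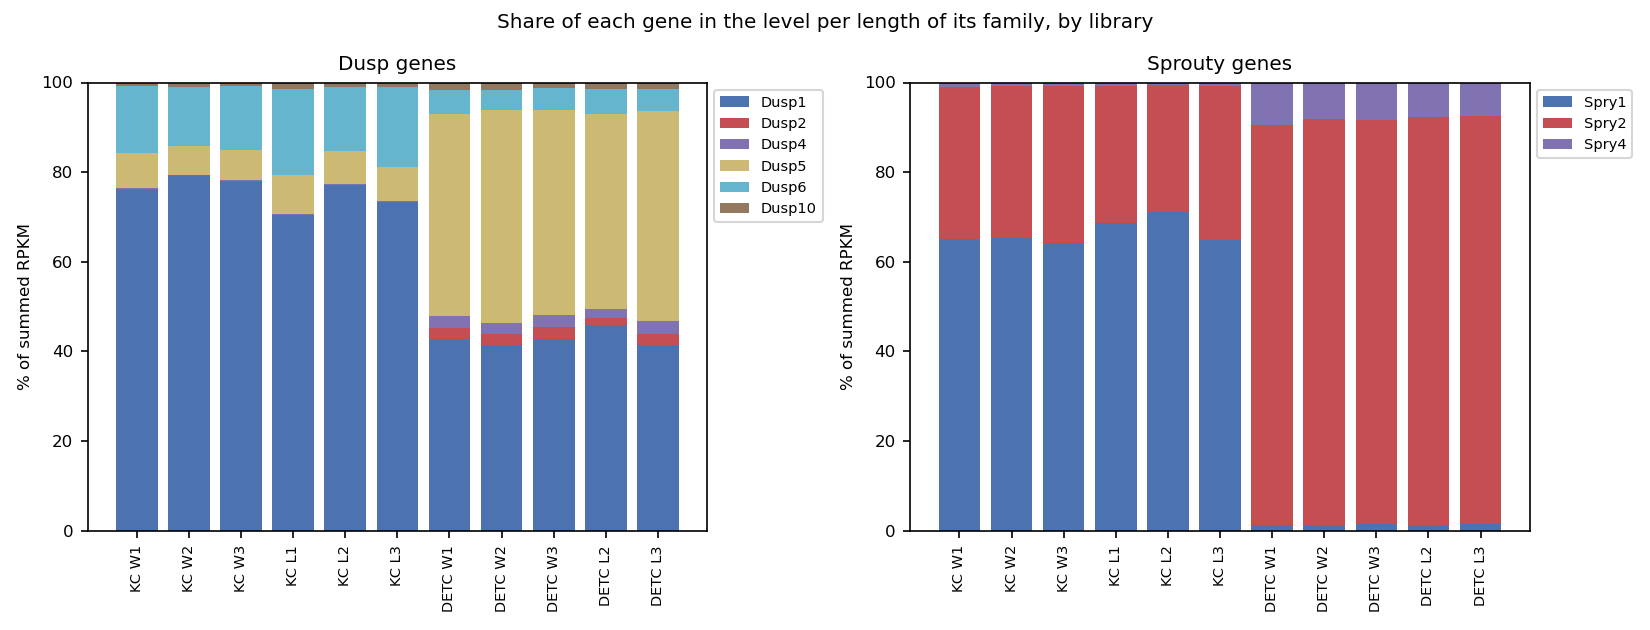
Share of each gene in the summed RPKM of the 6 Dusp genes (left) and the 3 Sprouty genes (right), in percent, 1 bar per library. Dusp1 holds most of the KC bars and shares the DETC bars with Dusp5, and Spry1 holds most of the KC bars (64.9% in WT) where Spry2 fills the DETC bars (90.1% in WT).

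Other genes of the pathway were listed by function. Beside their counts stand the shares over all tested genes with an adjusted p under 0.05, upward 5.37% (KCs) and 3.13% (DETCs), downward 1.85% (KCs) and 0.430% (DETCs). The calls in these lists depend on single libraries: of 15 in KCs, 0 remained when W1, L1, W2 or L3 was left out, 6 without W3 and 8 without L2, and of 10 in DETCs, 8 remained without W1, 2 without W2, 1 without W3 or L2 and 5 without L3. Of the other MAP kinase phosphatases, 9 of 10 were tested, and 2 rose in LC-/- KCs: Dusp8 (0.38, adjusted p = 0.0444) and Dusp16 (0.45, adjusted p = 0.0194), both of which act on JNK and p38. In DETCs 0 of these 9 were called. Among 16 tested inhibitors of RAS and ERK signalling, Errfi1, an inhibitor of the EGF receptor, rose in both populations, by 0.53 in KCs (adjusted p = 0.0385) and 0.51 in DETCs (adjusted p = 0.0489). With quantile normalization Errfi1 was not called in either population (0.32 and 0.26), and of single omissions only that of KC L2 and that of DETC W1 kept the calls. Its normalized counts were 8990.3, 7887 and 8962 in WT and 12232, 11403 and 13614 in LC-/- KCs, and 19328, 20886 and 20858 in WT and 28391 and 29543 in LC-/- DETCs. The genotypes did not overlap in either population.

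Upstream, the ligand and receptor genes Egfr (0.58), Met (0.64) and Tgfa (0.50) rose in LC-/- KCs, and the FGF receptor Fgfr3 fell by 0.23 on the log2 scale (adjusted p from 0.0294 to 0.0449 for these 4 genes, limma). Over the 6 single omissions Met was called in 1, and Egfr, Tgfa and Fgfr3 were never called. None of these 4 genes was called without a filter. Egfr, Met and Tgfa were not called with quantile normalization, nor was Fgfr3 in edgeR. In DETCs the EGF receptor ligand Areg rose by 0.59 (adjusted p = 0.0323, not called with quantile normalization or in 4 of 5 single omissions), from 18796, 20232 and 20201 normalized counts in WT to 29731 and 29740.2 in LC-/- libraries. The median log2 fold change of the 16 tested ligands and receptors was 0.09 in KCs and 0.38 in DETCs, where 15 of 16 values were positive. Of these 16 genes, 12 were called lower in WT DETCs than in WT KCs, beside 35.1% of all tested genes. The keratinocyte share was 24.3% in L2 and 16.0% in L3, beside 15.3% to 17.9% in WT DETC libraries. Its part in the median of this list was not tested. Of the 13 adaptor and RAS genes, the phosphatase gene Ptpn11 rose in KCs (0.35, adjusted p = 0.0193). Of the 20 genes of the kinase cascade, Map2k3 rose in both populations (0.52 in KCs, adjusted p = 0.019, and 0.56 in DETCs, adjusted p = 0.031), Map2k4 in KCs (0.56, adjusted p = 0.0238) and Braf in DETCs (0.99, adjusted p = 0.00832). Map2k3 and Map2k4 encode kinases that activate p38 and JNK, the substrates of Dusp10.

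Among 18 tested genes that ERK induces, 3 rose in LC-/- KCs, Fosl1 (0.56), Phlda1 (0.85) and the urokinase receptor gene Plaur (1.69), and 3 in DETCs, Egr3 (0.58), Ier3 (0.46) and Phlda1 (0.90). In KCs Fosl1 and Phlda1 were not called in any of the 6 single omissions. The median of the 18 genes was 0.11 in KCs and 0.22 in DETCs. In WT DETCs 12 of the 18 were called lower than in WT KCs, beside 35.1% of all tested genes. Of 21 genes linked to tissue dissociation and heat shock, Dnajb1 (0.51) and Hsp90aa1 (0.62) rose in DETCs, where the median of the list was 0.33 and 15 of 21 genes had genotypes that did not overlap, all upward, beside 21.3% of all tested genes upward and 16.5% downward. Dnajb1 was not called when any 1 of the WT DETC libraries was left out, nor was Hsp90aa1 without W2 or W3. Over all 5 omissions the log2 fold change was 0.44 to 0.58 for Dnajb1 and 0.55 to 0.69 for Hsp90aa1. Neither gene was called with quantile normalization. None of the 10 genes called in DETCs across these lists was called after subtraction of the keratinocyte share, a setting in which 0 of all tested genes were called, and all 10 kept their direction. Between WT populations 41.0% of all tested genes were called higher and 35.1% lower in DETCs, beside 13 up and 5 down among the 20 cascade genes and 1 up (Areg, 6.02) and 12 down among the 16 ligands and receptors. Of the other phosphatases, Ptpn5 and Ptpn7, both of which act on MAP kinases, had 2030.5 to 2496 and 1334 to 1493 normalized counts in WT DETCs and at most 2.05 and 1.02 in WT KCs, whereas Dusp7, Dusp14, Dusp16 and Dusp22 were lower in DETCs (-2.25, -1.97, -0.83 and -1.68, and -4.45, -3.47, -1.33 and -2.76 with the keratinocyte share subtracted).

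In the remaining lists, too, many genes were called between WT populations (log2 fold changes, DETCs against KCs, adjusted p of 0.0179 or less in limma), as were 41.0% (higher) and 35.1% (lower) of all tested genes. Of the 16 RAS and ERK inhibitors, 7 were higher in DETCs, led by Dok2 (8.16), Dok1 (4.19) and Rasa2 (3.06), of which the Dok genes encode adaptors known from blood cells, and 7 were lower, Dab2ip (-2.35) and Spred3 (-1.51) among them. Spred3 was not called without a filter (adjusted p = 0.106) or in 3 of 6 omissions of a library, namely of KC W2 or W3 or of DETC W2 (highest adjusted p = 0.0785, log2 fold change from -1.94 to -1.09 over omissions). Of the 13 adaptor and RAS genes, 5 were higher, led by Rras2 (1.43), Ptpn11 (1.29) and Grb2 (1.14), and 7 lower, led by Gab1 (-2.67), Hras (-1.47) and Rras (-0.83). In the cascade the p38 genes parted: Mapk12 (5.87) and Mapk11 (4.22) were higher in DETCs, as was the ERK activator Map2k1 (2.27), and Mapk13 (-2.54), Map2k4 (-1.34) and Map2k3 (-0.58) were lower. Among genes that ERK induces, 5 were higher, led by Elk3 (4.84), Fos (0.81) and Plaur (0.66), and 12 lower, led by Fosl1 (-2.69), Hbegf (-2.55) and Myc (-2.30). Plaur was not called without a filter (highest adjusted p = 0.0624) or with the keratinocyte share subtracted. The receptor genes Erbb3 (-2.84) and Fgfr3 (-2.78) were lower in DETCs. With the keratinocyte share subtracted, log2 fold changes of the lower genes moved further, to -4.93 for Dab2ip, -6.94 for Mapk13, -8.10 for Hbegf, -10.07 for Gab1, -11.45 for Fosl1, -11.79 for Fgfr3 and -12.54 for Erbb3. The largest of these leave next to no counts in DETCs and depend on the pseudocount. Of the 21 dissociation and heat shock genes, 6 were higher, led by Hsph1 (1.35), Junb (0.99) and Hspa8 (0.94), and 10 lower, led by Atf3 (-2.10), Hspb1 (-2.06) and Egr1 (-1.84).

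Promoters were compared, and those of Dusp5 and Dusp1 are shown because they held the motif matches and that of Spry2 because this gene stood far apart between the populations. The RefSeq table (GRCm38.p6) holds 8 of the 10 genes, all but Dusp4 and Spry4, and the 250 bases before each start were searched on both strands. The serum response element occurred in 1.47% of all 32851 such windows and, of the 8 genes, in Dusp5 only, at 2 adjoining positions. The cAMP response element TGACGTCA occurred in 1.55% of windows and in Dusp1 only, and its core TGACG, which the full element holds on each strand, in 17.8% of windows and in Dusp1 (3 positions) and Dusp5 (1 position). AP-1 sites (TGAGTCA or TGACTCA, 4.46% of windows), the ETS site (2.88%) and the TATA box TATAAA (12.4%) were in none of the 8 windows. Below, the part of each window before any untranslated base annotated in GENCODE is given 5′ to 3′ in the direction of the gene, with the serum response elements and cAMP response elements or cores in capitals. They are chr19:53528895-53529108 (plus strand) for Dusp5, chr17:26508520-26508722 (minus strand) for Dusp1 and chr14:105896820-105897069 (minus strand) for Spry2, the last with no match. The Dusp1 stretch precedes the RefSeq start and lies within the longer GENCODE gene given above, which has exons further upstream. A match is a description of the sequence, and factor binding was not measured.
Dusp5: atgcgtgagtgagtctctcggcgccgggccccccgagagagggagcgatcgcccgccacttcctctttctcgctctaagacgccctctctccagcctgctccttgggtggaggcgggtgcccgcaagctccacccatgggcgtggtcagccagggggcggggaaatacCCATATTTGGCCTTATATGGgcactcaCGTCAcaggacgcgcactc
Dusp1: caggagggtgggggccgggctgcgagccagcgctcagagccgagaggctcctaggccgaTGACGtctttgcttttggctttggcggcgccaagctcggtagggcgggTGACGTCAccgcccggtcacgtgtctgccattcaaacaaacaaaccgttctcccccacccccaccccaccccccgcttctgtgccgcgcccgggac
Spry2: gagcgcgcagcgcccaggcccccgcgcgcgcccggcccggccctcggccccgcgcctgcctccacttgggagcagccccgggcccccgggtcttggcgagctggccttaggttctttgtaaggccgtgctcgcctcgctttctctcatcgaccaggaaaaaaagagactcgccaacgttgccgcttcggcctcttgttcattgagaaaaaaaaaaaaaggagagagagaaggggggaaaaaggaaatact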

How the data were processed

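RNA of sorted KCs and DETCs was analysed in 11 libraries (poly-A RNA, paired reads of 75 bases). The authors used cutadapt for trimming, hisat2 for alignment to GRCm38, featureCounts for counting and median-of-ratios size factors for scaling, and the deposited signal per gene is the scaled count. Reads were recovered by finding the smallest step between values, and 100% of values came back whole to within 0.01 reads. Genes with a CPM above 1 in at least 2 libraries were kept. Gene models and lengths came from GENCODE M21, and 52403 of 52550 IDs had a symbol.

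Genome-wide tests used limma 3.58.1 (eBayes with trend, log2 of the value plus 1, Benjamini-Hochberg) in R 4.3.3, within each population for genotype, with an interaction term over all libraries, and between WT populations. edgeR 4.0.16 and DESeq2 1.42.0 were run on recovered reads. Other settings were pseudocounts of 0.5 and 8, no filter, a minimum mean of 10, quantile and TMM normalization, eBayes without trend, 1 fit over all libraries, size factors within a population, subtraction of the keratinocyte share, a replicate block, and omission of each library. The fits were tested on simulated data.

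Genes named were the 10 members, and of each pathway list every called gene or, where more than 6 were called in a comparison, the 3 with the largest change in each direction and a mean of at least 10. A few of the genes so chosen are not reported here but stay in the counts. Dusp5, Dusp1 and Spry2 were chosen for the printed promoters after their values were seen. The members and lists were chosen with earlier results of these data known.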

Additional observations from a re-analysis of the deposited data

Results flagged for a closer look

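For 2 pathway genes the change with LC absence differed between DETCs and KCs in the interaction test. They were 1 of 20 cascade genes and 1 of 13 adaptor and RAS genes, beside 0.798% of all tested genes called. The other pathway lists, of 9, 16, 18, 16 and 21 tested genes, had 0. Braf, a kinase that activates the ERK cascade, changed by 0.10 in KCs and 0.99 in DETCs, a difference of 0.89 (SE 0.13, adjusted p = 0.0113, limma). Its normalized counts were 1475, 1485 and 1531 in WT DETCs and 3254 and 2723 in LC-/- DETCs. Ptpn11, a phosphatase that promotes RAS activation, changed by 0.35 in KCs and -0.33 in DETCs, a difference of -0.68 (SE 0.11, adjusted p = 0.0146, limma). It had 2241, 2193 and 2298 normalized counts in WT KCs and 2954, 2788 and 2851 in LC-/- KCs, and 5652, 4984 and 5836 in WT DETCs and 4446 and 4278 in LC-/- DETCs. Neither gene was called without trend (adjusted p = 0.0688 for Braf and 0.0773 for Ptpn11), with the replicate block (0.0857 and 0.0955) or without the DETC library L2 (0.0529 for both). Ptpn11 was also not called without the KC library L1 or W2 (highest adjusted p = 0.0563). Over other settings the difference was 0.78 to 0.94 for Braf and -0.79 to -0.66 for Ptpn11, and over omissions of a library 0.76 to 1.02 and -0.75 to -0.63. The remaining LC-/- DETC library, L3, lay outside the WT range for both genes (2723 and 4278).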

How the results depend on the processing

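Differences between WT DETCs and WT KCs were called for all 10 genes in each of 11 other settings and 6 omissions of a library. The number of genes called in LC-/- KCs, 1, was 0 without a filter, where more genes are tested. It was 0 to 0 over omissions of a library, which leave fewer samples, and the cause of either loss was not tested. In DETCs it was 0 in every other setting and 0 to 1 over omissions, the 1 being Dusp2 without L3. For the interaction it was 0 except 1 (Spry2) with DESeq2; the cause was not tested. With a replicate block 0 genes were called in the interaction and 10 between WT populations, and all tested genes called in the interaction went from 89 up and 26 down to 17 and 1. Deviations of libraries with the same number correlated at -0.05 (W1), 0.07 (W2), 0.12 (W3), 0.14 (L2) and 0.12 (L3), where W2 and W3 correlated best with their own number and W1 with W2. The 2 LC-/- DETC libraries deviate from their mean by opposite amounts, so L2 and L3 are not separate matches. The labels do not say that libraries share a mouse, and they were not paired.

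Of the 15 pathway genes called in KCs, 5 were called without a filter, 7 with quantile normalization, 9 without trend and 11 in 1 fit over all libraries, and between 0 (without W1, L1, W2 or L3) and 8 (without L2) over omissions. Of the 10 called in DETCs, 1 was called without a filter, 3 with quantile normalization and 0 without trend, where 0 of all genes were called, and 1 to 8 over omissions. All kept their direction. Over all genes, calls in KCs were 775 up and 267 down with all libraries, and over omissions of a library they ranged from 5 and 0 (without L1) to 552 and 169 (without L2). Quantile normalization changed the split of calls in DETCs from 452 up and 62 down to 178 and 85, and between WT populations from 5906 and 5059 to 4693 and 6658; subtraction of the keratinocyte share gave 5012 and 6159. Omissions that leave 1 LC-/- DETC library assume that it varies like the WT libraries.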
